A study of Mus musculus with 2 samples.

Results

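The forkhead transcription factor genes are the mouse genes whose names begin with Fox. They were taken as the protein-coding genes of the GENCODE M21 annotation named Fox plus a letter and a number, leaving out Foxi1, Foxc2 and Foxd1, which were not analysed here. This gave 41 genes in 19 subfamilies, out of 21670 protein-coding genes (autosomes 1 to 19 plus X). Accessible chromatin was mapped by DNase-seq in kidneys of female mice of the strain B6CASTF1/J, postnatal, 8 to 10 months old. B6CASTF1/J is a first-generation cross of C57BL/6J and CAST/EiJ, and no treatment or altered allele is given. There were 2 libraries in 1 group, numbered as biological replicates 1 and 2, with separate tissue samples under 1 shared donor entry. The labels do not say that they came from separate animals, so the spread between them may be technical, and the design allows no test between conditions.

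Forkhead factors bind DNA through a winged helix domain, and most recognise variants of the letters TGTTTAC or TATTTAC. Some members, such as the FoxA factors, can bind sites in closed chromatin, and others, such as the FoxO factors, are inhibited when insulin signalling is active. In the kidney, family members are known from the stroma, the podocytes and the intercalated cells, and FoxO factors are linked to gluconeogenesis and stress defence.

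DNase I cuts where chromatin is accessible, a peak is a stretch with many cuts, and a footprint is a short run of bases inside it that was cut less. Peaks of both libraries that overlapped by at least 1 base were joined into a shared region, of which there were 96735. A promoter was called open where a shared region overlapped the 500 bases on either side of any coding transcription start site (TSS) of the gene, and closed otherwise. A distal region was a shared region outside every coding promoter window, within the gene body or 10 kb of it. Signal is the peak value deposited by the authors, and coordinates are 1-based on mm10 (GRCm38).

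The longer peak lists held 137083 and 125000 peaks, and the footprint lists 316362 and 312966 footprints. If 1 step of the signal stands for 1 tag in a signal scaled to M tags (M, mega), the libraries held 120.9 M and 119.9 M tags. The tissue label was checked against markers: all 6 proximal tubule, 4 thick ascending limb and 3 distal convoluted tubule markers had open promoters. Over all genes 63.0% were open, and 38.6% of those with a CpG-poor promoter (defined below). None of 4 immune markers, all CpG-poor, was open. Endothelial markers were open at 5 of 5, stroma and mural markers at 3 of 4, and principal and intercalated cell markers at 2 of 3 each. Markers of urothelium, adrenal cortex, hepatocytes and adipocytes, all CpG-poor, were each open at 1 of 3, near the share of that class. In such a tissue, a weak signal from all cells and a strong signal from few cells cannot be told apart.

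Of the 41 Fox genes, 21 had an open promoter, which is 51.2% (exact 95% binomial interval 35.1 to 67.1) beside 63.0% of all protein-coding genes. By subfamily, every member of FoxC, FoxJ, FoxK, FoxM, FoxO and FoxP was open, and no member of FoxB, FoxE, FoxH, FoxL, FoxQ, FoxR or FoxS was. In FoxA, FoxD, FoxF, FoxI and FoxN, open and closed members stood side by side. With a promoter window of 2000 bases on either side, the share became 65.9%, beside 67.4% of all genes. The interval covers counting error only, and genes of a subfamily are related copies and not independent draws.

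CpG-rich sequence was common at these promoters, yet many CpG-rich Fox promoters were closed. CpG-rich here means an observed CpG count of at least 0.6 of that expected and a GC content of at least 50% within 500 bases of the outermost coding TSS. This held for 31 of 41 members (75.6%; exact interval 59.7 to 87.6), beside 45.4% of all genes. Of the 31, 19 were open (61.3%; exact interval 42.2 to 78.2), beside 92.2% of all CpG-rich promoters. Of the 10 CpG-poor members 2 were open, Foxa3 and Foxj3, beside 38.6% of CpG-poor promoters in general. Foxa3 lay just under the limit with a ratio of 0.595. The strong region of Foxj3 lay at an inner start, where CpG was not measured. With the window of 2000 bases, 67.7% of the CpG-rich Fox promoters were open beside 94.0% of all CpG-rich promoters. The CpG split was added after the data were seen.

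**Figure D1:**
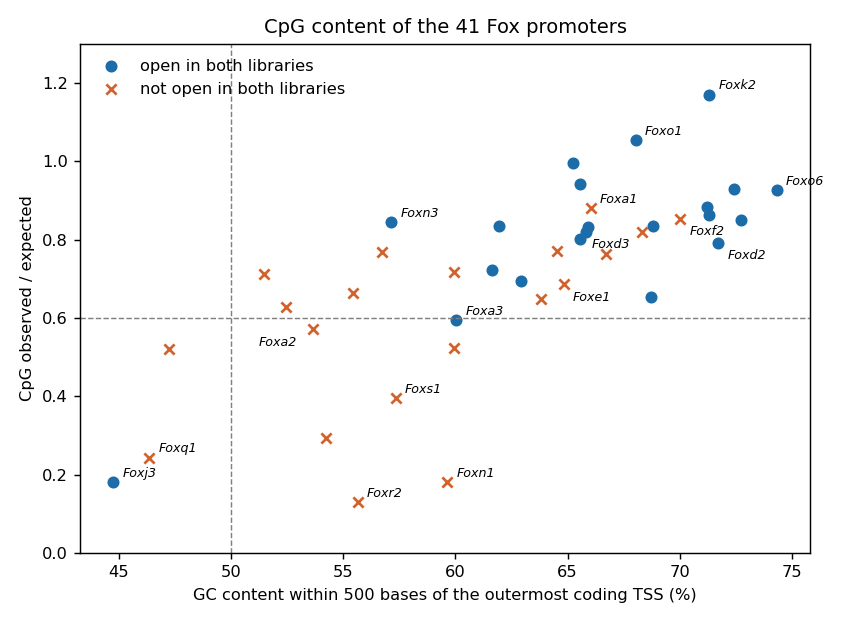
GC content in percent (x axis) against the observed to expected CpG ratio (y axis) of the 41 Fox promoters, with dashed lines at the limits of 50% and 0.6. Circles are promoters open in both libraries and crosses are the others: 19 circles and 12 crosses share the CpG-rich corner, and Foxk2 stands highest at a ratio of 1.17.

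The 12 closed CpG-rich promoters included those of Foxa1, Foxb1, Foxb2, Foxd3, Foxe1, Foxe3, Foxf2, Foxl1, Foxl2, Foxn4 and Foxr1. Most of these encode regulators of early organ or tissue patterning, such as Foxe1 of the thyroid and Foxl2 of the ovary. Of these 12, 8 have their whole coding sequence in a single block, that is, with no intron between coding bases. Of 14 such Fox genes 2 were open (14.3%), Foxc1 and Foxd2, against 19 of 27 members with several coding blocks (70.4%). This split by coding blocks was not planned in advance. In all genes with a single coding block, 25.1% were open. Among CpG-rich promoters alone, 2 of 10 single-block Fox genes were open beside 81.5% of single-block genes in general, and 17 of 21 with several blocks (81.0%) beside 93.0%.

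Few bases of the closed promoters reached the FDR limit in either library. The authors' false discovery rate (FDR) list, which stops at 0.05, had no base in the promoter windows of 17 of the 20 closed members in either library. It had a base in the promoter windows of 65.6% of all genes in replicate 1 and 66.2% in replicate 2. Those shares take in open genes, while the 20 members were picked for lacking a shared peak, so the 2 are not alike. The share over closed genes alone was not computed. Foxa2 had 34 listed bases in replicate 1 (lowest FDR 0.0389) and Foxn4 had 2 in replicate 2 (0.0391).

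The pair Foxd2 and Foxd3 shows the contrast in sequence, since both are single-block, CpG-rich genes on chromosome 4 and only the first was open. Foxd2, which encodes a factor of the kidney mesenchyme, had a promoter region at chr4:114908901-114909120 with a signal of 2.45 in replicate 1 and 4.54 in replicate 2 (3.50 ± 1.48, SD, n = 2). Foxd3, a factor of pluripotent cells and the neural crest, had no promoter peak in either library. GC content was 71.7% at Foxd2 and 68.3% at Foxd3, and the CpG ratio was 0.792 and 0.819. The sequences are the 250 bases before the RefSeq start on GRCm38.p6, 5′ to 3′ on the gene's strand, with footprints shared by both libraries in capitals. They lie at chr4:114908899-114909148 on the minus strand for Foxd2 and at chr4:99656049-99656298 on the plus strand for Foxd3.
Foxd2: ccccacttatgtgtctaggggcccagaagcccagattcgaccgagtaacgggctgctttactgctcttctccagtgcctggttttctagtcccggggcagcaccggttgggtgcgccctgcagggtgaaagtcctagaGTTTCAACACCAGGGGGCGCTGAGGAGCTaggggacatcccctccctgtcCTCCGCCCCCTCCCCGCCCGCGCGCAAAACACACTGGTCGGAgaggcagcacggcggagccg
Foxd3: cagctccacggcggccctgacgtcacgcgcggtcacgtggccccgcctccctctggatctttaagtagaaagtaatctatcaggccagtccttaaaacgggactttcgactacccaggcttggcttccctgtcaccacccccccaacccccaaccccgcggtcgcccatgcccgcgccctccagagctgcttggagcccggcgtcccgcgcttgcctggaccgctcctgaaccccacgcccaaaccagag
Foxd2 holds 2 shared footprints in this stretch and Foxd3 holds none. Foxd3 was chosen as the closed gene of the pair, and a footprint as defined above lies inside a peak. Its lack of footprints is therefore not a separate result. A noncoding transcript, Foxd2os, also starts within 500 bases of the Foxd2 region, so the region is not assigned to Foxd2 alone.

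Among the open members the signal ran from 0.424 to 9.54. The median was 3.50, beside 4.78 over all open genes, and 13 of the 21 were at 2 or more in both libraries. Foxj1 and Foxo6 had the highest means and Foxp2 the lowest. In 15 of the 21 the stronger library was replicate 2, beside 64.0% of all promoter regions. None of the 21 differed more than 2-fold between libraries (2.99% of all promoter regions did). The 21 values are from the strongest region of each gene, while the shares over all promoter regions take in weaker ones, so the sets are not alike. The order of close neighbours, such as Foxc1, Foxn2 and Foxo3 at 5.004, 4.94 and 4.85, is within their spread.

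**Figure D2:**
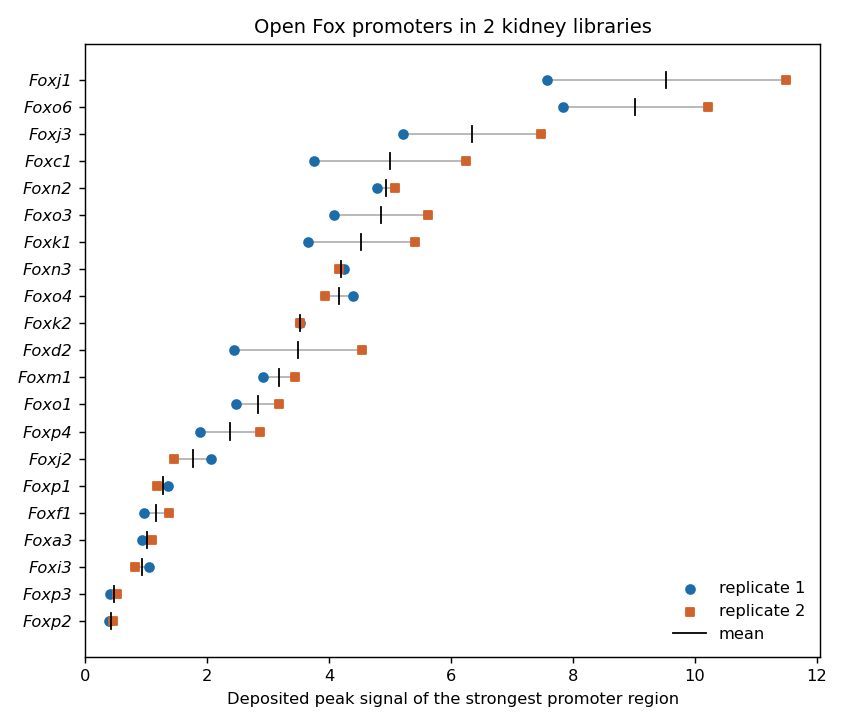
Deposited signal of the strongest promoter region (x axis, linear) of each of the 21 open Fox genes (y axis, sorted by mean). Circles are replicate 1, squares replicate 2 and black ticks their mean: Foxj1 (9.54) and Foxo6 (9.03) have the highest means, followed by Foxj3 (6.34), whose replicate 2 value comes close to replicate 1 of both, and Foxp2 (0.424) is lowest.

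The FoxO genes encode factors that insulin and growth factor signals inhibit through phosphorylation, and all 4 were open. Foxo6 had the strongest promoter of the 4, with 7.84 in replicate 1 and 10.2 in replicate 2 (9.03 ± 1.68, SD, n = 2), above 76.7% of open promoters. Its region at chr4:120287801-120288140 was centred at -622 bases from the TSS, held 8 shared footprints and only its edge reached the promoter window. Foxo3 had 4.08 and 5.62 at chr10:42276601-42276840, with 2 footprints and a second promoter region of 1.497 and 1.75 beside it. Foxo4, on chromosome X, had 4.40 and 3.94 at chrX:101254021-101254220 with 3 footprints, centred at -407 bases from the TSS. Foxo1, the member best known from gluconeogenesis, was lowest with 2.48 and 3.18 (2.83 ± 0.492) at chr3:52268161-52268420. The libraries of Foxo6 stood above those of the other FoxO genes without overlap, and the ranges of Foxo3 and Foxo4 touched no value of Foxo1.

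The Foxo1 promoter is printed because its region held 4 shared footprints, with the letters CCAAT in at least 1. The 250 bases before the RefSeq start lie at chr3:52268087-52268336 on the plus strand of GRCm38.p6, with shared footprints in capitals.
Foxo1: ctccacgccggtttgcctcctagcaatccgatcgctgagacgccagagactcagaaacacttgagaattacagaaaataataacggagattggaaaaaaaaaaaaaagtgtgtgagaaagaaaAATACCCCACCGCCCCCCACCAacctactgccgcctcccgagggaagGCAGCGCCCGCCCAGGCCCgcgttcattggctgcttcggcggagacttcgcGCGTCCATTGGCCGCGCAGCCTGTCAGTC
Of the footprints, 3 fall in this stretch, and the last reaches its end. CCAAT stands in reverse, as ATTGG, in the last of them.

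Much of the FoxO signal lay outside the promoters. Foxo3 had 19 distal regions and Foxo1 had 10, Foxo6 had 3 and Foxo4 had none. The strongest, centred at -1016 bases from the TSS of Foxo3 at chr10:42277621-42277920, had 14.2 in replicate 1 and 11.2 in replicate 2 (12.7 ± 2.16, SD, n = 2) and 7 shared footprints. It exceeded 99.8% of all distal regions, and both its values were above both values of the Foxo3 promoter. Next to it, chr10:42278041-42278280 had 5.002 and 5.26 with 4 footprints, and an intronic region at chr10:42251261-42251580 had 3.33 and 3.77 with none. At Foxo1 the strongest region, in an intron at chr3:52270021-52270240, had 4.10 and 4.99 with 5 footprints, also above both promoter values. With the promoter window widened to 2000 bases, the strongest promoter signal became 12.7 for Foxo3 and 4.55 for Foxo1.

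Genes that act above and below the FoxO factors were open almost throughout. Of 21 genes of insulin and FoxO signalling, 21 were open, with a median signal of 7.67. Insr, the insulin receptor, had 6.56 and 7.68, Irs2, its adaptor, had 8.68 and 9.09, and Sgk1, a kinase that phosphorylates FoxO factors, had 10.8 and 10.9. Of 21 genes reported as FoxO targets, 20 were open, with a median of 6.83, and Trim63, a ubiquitin ligase of muscle, was closed. Pck1, the gluconeogenic enzyme, had 7.62 and 6.52, G6pc had 4.81 and 3.13, and Txnip, an inhibitor of glucose uptake, had 18.2 and 18.4. These shares stand beside 63.0% of all genes and 92.2% of CpG-rich ones. All 14 CpG-rich genes of the first list and all 10 of the second were open.

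The FoxK genes encode regulators of autophagy and glycolysis, and both were open. Foxk1 had 3.65 in replicate 1 and 5.40 in replicate 2 at chr5:142401341-142401580 with 3 shared footprints. Foxk2 had 3.53 and 3.52 (3.52 ± 0.00853, SD, n = 2) at chr11:121259741-121260040 with 5 footprints. The value of Foxk2 in each library was below both of Foxk1. Foxk1 carried 8 distal regions and Foxk2 carried 1. The strongest region of Foxk1 lay in an intron, 39181 bases from the nearest coding TSS at chr5:142440541-142440820, with 14.6 and 10.3 (12.4 ± 3.05), above the promoter in both libraries. A further intronic region at chr5:142448241-142448440 had 2.39 and 5.11 with 4 footprints, a difference of more than 2-fold between libraries.

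The first of these intronic regions is printed as the strongest region deep inside any Fox gene, on the plus strand of GRCm38.p6 with its 5 shared footprints in capitals.
Foxk1: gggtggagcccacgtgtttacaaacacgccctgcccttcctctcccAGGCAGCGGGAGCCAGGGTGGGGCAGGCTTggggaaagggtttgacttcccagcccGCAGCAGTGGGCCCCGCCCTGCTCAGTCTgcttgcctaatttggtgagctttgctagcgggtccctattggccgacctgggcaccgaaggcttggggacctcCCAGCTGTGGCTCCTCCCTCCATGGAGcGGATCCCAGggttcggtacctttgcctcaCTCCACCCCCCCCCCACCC
The forkhead letters tgtttac occur near its left end in lower case, outside the footprints.

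FoxJ held the promoter with the highest mean signal, though Foxo6 was higher in replicate 1 and the means of the pair lie within their spread. Foxj1, the master regulator of motile cilia, had 7.57 in replicate 1 and 11.5 in replicate 2 (9.54 ± 2.77, SD, n = 2) at chr11:116335361-116335540, above 78.9% of open promoters. Foxj3 had 5.21 and 7.47 at chr4:119539241-119539660, with 6 footprints, in a window it shares with Frg2f1, and all 7 of its coding TSS lay within 500 bases of a shared region. At the outermost Foxj3 start alone the signal was 0.842, and the strong region lay at an inner start. Foxj2 had 2.07 and 1.46 at chr6:122826361-122826700, the lowest of the 3, with 4 promoter regions and 6 distal ones.

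The part of the Foxj1 promoter region upstream of the start, chr11:116335400-116335540 on the minus strand of GRCm38.p6, is printed with shared footprints in capitals.
Foxj1: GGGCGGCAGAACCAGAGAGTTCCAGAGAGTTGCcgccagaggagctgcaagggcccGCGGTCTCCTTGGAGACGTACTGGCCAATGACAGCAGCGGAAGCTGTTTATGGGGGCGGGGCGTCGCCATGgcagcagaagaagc
The region held 3 footprints in all, and the second of the runs printed contains both CCAAT and the letters GGGGCGGGG bound by Sp and Klf factors. Foxj1 had 5 distal regions, all weaker than the promoter, and a median log2 ratio (replicate 2 over replicate 1) of -0.24 over its 6 regions.

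Genes of the motile cilium, many of them known to depend on Foxj1, were open in 15 of the 16 that matched the annotation by symbol, beside 63.0% of all genes, and Dnai1 and Dnai2 did not match. All 6 CpG-rich genes among them were open, beside 92.2% of all CpG-rich promoters. Their median signal was 1.74, below the 4.78 of all open genes and below Foxj1 itself. Rsph1, a radial spoke protein, had 12.0 and 20.1 and Rfx2, a factor acting with Foxj1 on cilium genes, had 12.2 and 11.8. Structural genes spanned a wide range: Cfap126 had 5.13 and 4.98, Dynlrb2 had 4.27 and 4.602, Tekt1 had 1.17 and 1.74, Spag6l had 0.678 and 0.609, and Dnah5, a dynein heavy chain, was closed. Mcidas, which starts multiciliated differentiation, had 0.926 and 1.53. Of the 4 multiciliated markers, which include Foxj1, 3 were open.

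Foxm1, a driver of mitotic gene expression in dividing cells, had 2.91 in replicate 1 and 3.44 in replicate 2 at chr6:128362661-128363000 with 4 shared footprints. Rhno1 has a start in reach of the same region, and only 1 of the 4 coding TSS of Foxm1 lay near it, so the signal cannot be assigned to either gene. Foxm1 had no distal region. All 15 genes of the mitotic programme tied to Foxm1 were open, with a median of 5.16, beside 63.0% of all genes. Of these genes 13 were CpG-rich, a class in which 92.2% of all promoters were open, so the count is near its background. Cenpf, a kinetochore protein, had 13.02 and 12.5, and Mki67 had 2.86 and 3.07.

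FoxN was split into an open and a closed pair. Foxn2 had 4.79 in replicate 1 and 5.09 in replicate 2 at chr17:88440461-88440720 with 7 footprints, and Foxn3, a repressor linked to cell cycle checkpoints, had 4.24 and 4.16 at chr12:99393001-99393280 with 5. The spread of both between libraries was small (SD 0.211 and 0.0574), and Foxn2 was higher in each library. Foxn1, the regulator of thymus epithelium, and Foxn4, a factor of the retina and spinal cord, were closed. Foxn3 had 5 promoter regions, near 5 of its 6 coding TSS, and at the outermost start the signal was 1.005.

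The strongest region of the whole family was distal and lay in an intron of Foxn3. It was centred 921 bases downstream of a coding TSS at chr12:99392041-99392260 and had 20.98 in replicate 1 and 20.95 in replicate 2. This exceeded 99.98% of all distal regions, and both libraries gave almost the same value. With a window of 2000 bases it became the strongest promoter region of any Fox gene. It is printed on the minus strand of GRCm38.p6, the strand of Foxn3, with its 4 shared footprints in capitals. Of these, 2 abut and print as 1 run at the left end.
Foxn3: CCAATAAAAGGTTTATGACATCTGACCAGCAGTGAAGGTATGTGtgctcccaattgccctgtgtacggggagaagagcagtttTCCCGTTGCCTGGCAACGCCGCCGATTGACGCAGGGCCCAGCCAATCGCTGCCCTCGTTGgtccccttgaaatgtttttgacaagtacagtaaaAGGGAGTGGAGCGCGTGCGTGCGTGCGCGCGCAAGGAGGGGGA
The second run of capitals holds GTTGCCTGGCAAC, a palindrome of the kind bound by RFX factors, and CCAAT occurs in the footprints as well. The RFX pattern, GTTGCC and GCAAC with any 2 bases between them, was searched for after this sequence had been seen. It occurred in 1 of 144 distal Fox regions (0.694%) and in 0.0788% of all distal regions.

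FoxP genes encode repressors of the brain, lung, muscle and immune system, and all 4 were open, each with a signal under the median of all open genes. Foxp4 led with 1.89 in replicate 1 and 2.87 in replicate 2 at chr17:47924661-47925100 and 3 footprints. Foxp1 had 1.36 and 1.18 at chr6:99266161-99266540 with no footprint in that region, and shared regions lay near 8 of its 14 coding TSS and 5 promoter regions in all. A region upstream of Foxp1 at chr6:99522861-99523080, centred at -1809 bases from a TSS, was higher than its promoters with 2.79 and 4.06 and 6 footprints. With a window of 2000 bases it became the strongest promoter region of Foxp1 (3.43). Foxp2, a gene of speech and motor circuits, had 0.389 and 0.459 at chr6:14900701-14901020, above only 2.70% of open promoters, near 2 of 8 TSS. Inside its promoter windows the highest replicate 2 peak had 0.283. The 0.459, on which the percentile rests, comes from a peak joined to the region outside those windows. The Foxp2 promoter was not open in the shorter peak list, within 100 bases of a start, or among the stronger 50% of peaks. Nor was it open where peaks had to overlap by 50% of each other. Foxp3 was likewise lost with the stronger 50% of peaks and Foxa3 with the shorter list.

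Foxp3, the factor that defines regulatory T cells, had 0.413 and 0.525 at chrX:7573381-7573920, near 1 of its 7 coding TSS. The same region lies in a coding exon and promoter window of Ppp1r3f and near the start of the noncoding gene Flicr, so it cannot be assigned to Foxp3. With a window of 2000 bases the strongest region of Foxp3 had 8.72 and 7.07 (mean 7.90), but that region, at chrX:7574281-7574520, lies in the promoter window of Ppp1r3f and not in the 500-base window of Foxp3. None of the 4 immune markers had an open promoter, but all 4 are CpG-poor, a class in which 38.6% of all promoters were open. Neither Foxp2 nor Foxp3 had a shared footprint in its promoter region.

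The remaining open members belong to subfamilies of development. Foxc1, a factor of mesenchyme and podocytes, had 3.75 in replicate 1 and 6.25 in replicate 2 at chr13:31806461-31806720 with 2 shared footprints. Foxf1, a factor of visceral mesenchyme and endothelium, had 0.959 and 1.37 at chr8:121083661-121084000, centred at -555 bases from the TSS and inside an intron of Gm20388. Foxa3, a factor of liver and gut, had 0.934 and 1.10 at chr7:19023301-19023840 with no shared footprint. With a window of 2000 bases its strongest region had 7.15 and 6.94 (mean 7.04), at chr7:19024141-19024440 in the promoter window of the neighbouring Sympk. Foxi3, a factor of the ectoderm and its appendages, had 1.04 and 0.817 at chr6:70956281-70956480 and 1 footprint. Foxc1 lay above the other 3 in both libraries, and the ranges of Foxf1, Foxa3 and Foxi3 overlapped.

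The 500-base limit decided a few calls. Just inside it were Foxf1 and Foxo6, whose regions were centred at -555 and -622 bases from the TSS. Just outside were Foxs1, with a region of 0.604 in replicate 1 and 1.04 in replicate 2 centred at -623 bases at chr2:152933741-152933920, and Foxl2. The Foxl2 region lay 733 bases downstream in its coding exon at chr9:98955901-98956140, with 0.595 and 0.750. With 2000 bases on either side, Foxa1, Foxa2, Foxh1, Foxl2, Foxq1 and Foxs1 became open as well. At Foxh1 the region that did so lies in the 500-base promoter window of another coding gene. Its nearest distal region was centred 8607 bases from the TSS. With 100 bases, Foxf1, Foxo4, Foxo6 and Foxp2 were lost.

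Distal regions were found at 33 of the 41 genes, which is near the background of 72.4% of all genes, and the median was 2 per gene in both. Of the 20 closed members, 15 had at least 1. Foxb1, Foxd4, Foxe1, Foxr1 and Foxr2 had neither an open promoter nor a distal region. Foxm1, Foxo4 and Foxp3 had an open promoter alone. The 4 genes Foxn3, Foxp1, Foxo3 and Foxo1, with 22, 20, 19 and 10 distal regions, held 71 of the 145. These counts depend on gene length, since a longer gene body is a wider search space.

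The distal regions were of ordinary strength apart from a few. Their median signal was 0.949, beside 0.918 over all distal regions, and 20 of the 144 different regions (13.9%) were in the top 10% of signal, with 5 in the top 1%. By annotation, counted gene by gene (145, with the region near both Foxd2 and Foxe3 counted for each), 92 lay in introns and 37 between genes. A further 11 lay in coding exons and 5 in UTR exons. Some of these introns and exons belong to neighbouring genes. In 10 of the 21 open members the strongest region was distal and not at the promoter, beside 24.1% of all open genes. These were Foxa3, Foxf1, Foxj2, Foxk1, Foxn3, Foxo1, Foxo3, Foxp1, Foxp2 and Foxp4. With a promoter window of 2000 bases on either side, the regions of Foxn3, Foxo1, Foxo3 and Foxp1 counted as promoter regions. The region of Foxa3 lies in a UTR exon of Irf2bp1, and that of Foxf1 in a UTR exon of Mthfsd. A longer gene body gives more room for a strong distal region, and the 24.1% is not matched for gene length. Whether the Fox share differs from it was not tested.

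**Figure D3:**
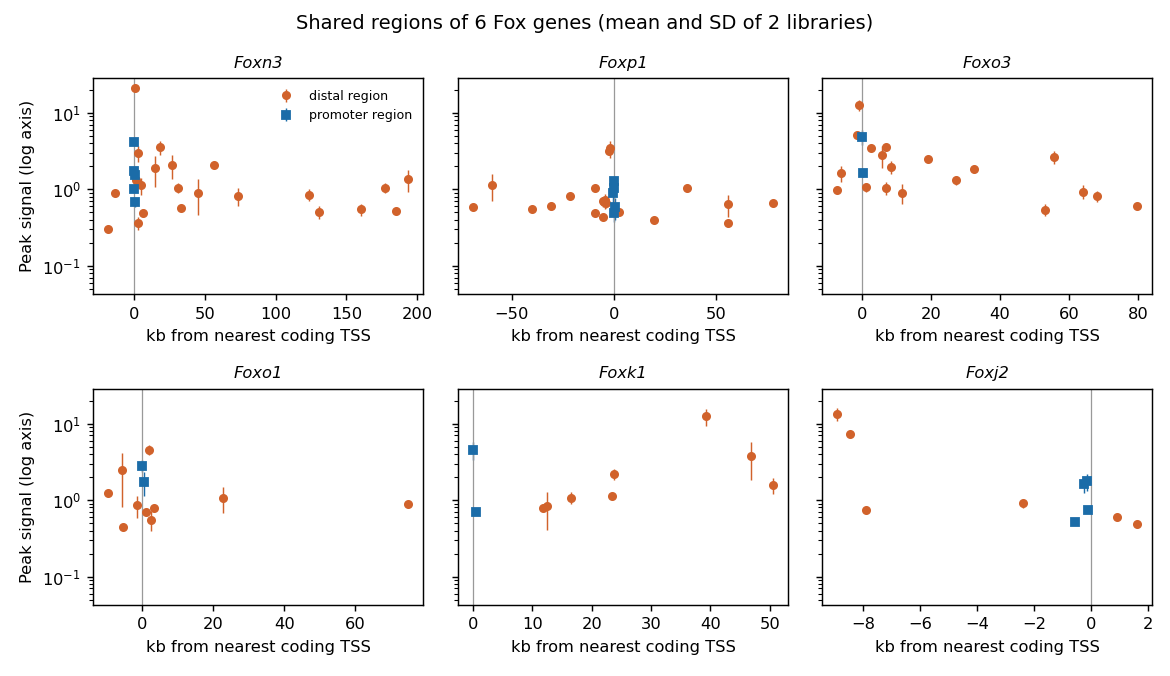
Signal on a log axis (mean of both libraries, bars 1 SD) against the distance in kb from the nearest coding TSS, for 6 Fox genes with many or strong regions. Squares are promoter regions and circles distal ones: the highest circle lies close to a start in Foxn3 (20.96) and Foxo3 (12.7) and far from one in Foxk1 (12.4) and Foxj2 (13.3).

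Some of the strong distal regions lie near other genes as well. At Foxj2, chr6:122810821-122811180 had 15.1 in replicate 1 and 11.6 in replicate 2 (13.3 ± 2.49, SD, n = 2), centred at -8913 bases from the TSS, with 5 shared footprints. Its neighbour chr6:122811341-122811560 had 7.35 and 7.24 with 4 footprints. Both lie within 10 kb of Slc2a3, a glucose transporter gene, and at the start of Gm5112. The strongest distal region of Foxa3, chr7:19006561-19006800, had 2.85 and 6.16 with 4 footprints and lies in a UTR exon of Irf2bp1. Proximity does not show which gene, if any, such a region serves.

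The closed members with a distal region are described here by their strongest. Foxq1, a factor of epithelia and hair, had 5, and the strongest at chr13:31558001-31558440 had 3.46 in replicate 1 and 3.17 in replicate 2 with 5 footprints. It lies in UTR exons of Foxq1 and A530084C06Rik. Foxs1, known from sensory neurons and pericytes, had 3, with 1.13 and 1.24 at the strongest. Foxn1 had 3, led by 1.40 and 2.93 in its own coding exon.

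Foxh1, a partner of Smad proteins in the early embryo, had 2 distal regions, of which the stronger had 1.95 and 3.24 and lies in a coding exon of Kifc2. Foxa1 had 2, the stronger with 0.504 and 1.53 in its intron at chr12:57545021-57545240, and Foxa2 had 1 with 0.934 and 2.54 at chr2:148048541-148048760, centred at -1682 bases from the TSS. Both are pioneer factors of endoderm. Foxf2 had 2, the stronger with 1.04 and 1.69. Foxl1, a factor of gut mesenchyme, had 1 with 1.55 and 1.88.

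Further closed members had 1 each. Foxb2, a factor of the developing nervous system, had 1.22 and 1.09, and Foxd3 had 0.537 and 1.38. Foxi2 had 0.752 and 1.88. Foxn4 had 0.496 and 1.301, in a coding exon of Acacb, and Foxl2 had 0.595 and 0.750. Foxe3, a lens factor, had 0.819 and 0.642 in a region that also lies within 10 kb of Foxd2. None of the closed members but Foxq1 reached a mean of 3.

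Footprints, the runs of bases protected from cutting, were found at most open Fox promoters. Of the 21 open members, 17 had a shared footprint in a promoter region, beside 93.0% of all open promoters. The 4 without were Foxa3, Foxf1, Foxp2 and Foxp3, all with a mean signal under 1.2. There were 80 footprints in promoter regions and 195 in distal ones. A footprint was found in 98 of 144 distal regions (68.1%), beside 63.2% of all distal regions. No test of these shares was made.

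Exact matches to 2 forkhead letter strings were rare in the footprints of the Fox genes, as in all footprints. Runs that differ in 1 letter, such as TGTTTAT in the printed Foxj1 footprint, were not counted. TGTTTAC or TATTTAC, on either strand within 5 bases of a footprint, occurred in 1 of 275 footprints (0.364%; exact interval 0.00921 to 2.01), beside 0.230% of 138938 shared footprints in all promoter and distal regions. Without the added bases it occurred in none, which allows a share of up to 1.33% by the exact interval. In whole regions, TGTTTAC occurred in 2 of 40 promoter regions (5%, beside 2.65% of all) and in 8 of 144 distal ones (5.56%, beside 4.26%). TATTTAC occurred in none of the 40 (1.28% of all) and in 1 of the 144 (0.694%, beside 2.62%).

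The single match lay at a footprint at the edge of the second upstream region of Foxo3. The 120 bases around it, chr10:42278210-42278329 on the minus strand of GRCm38.p6, are printed with the forkhead letters in capitals, here in reverse as GTAAACA.
Foxo3: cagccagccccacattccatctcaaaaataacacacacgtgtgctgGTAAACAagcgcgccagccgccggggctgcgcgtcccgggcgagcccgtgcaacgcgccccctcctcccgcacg
A match of letters does not show that a factor was bound.

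Other letters marked a few of the family's regions. GGGGCGGGG (Sp and Klf factors) occurred in 8 of 80 promoter footprints (10.0%, beside 6.54% of all) and 3 of 195 distal ones (1.54%, beside 0.941%). CCAAT (NF-Y) occurred in 4 of 80 (5%, beside 6.52%) and 10 of 195 (5.13%, beside 4.04%). The CTCF pattern (CCA, any 2 bases, AGG, any base, GGC) occurred in 1 of 80 (1.25%, beside 0.519%) and in 5 of 195 (2.56%, beside 3.68%). These counts are small, and those of the family lie near the background.

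HNF1 and HNF4 are regulators of kidney epithelia. The letters GTTAAT, an HNF1 half-site called HNF1 letters below, occurred in 5 of 195 distal footprints (2.56%, beside 1.61%). Of these 5, 2 are neighbours in 1 Foxp1 region. CAAAGTCCA of HNF4 occurred in 1 of the 195 (0.513%, beside 0.460%). Neither string occurred in the 80 promoter footprints, beside 0.295% and 0.0846% of all promoter footprints. TGANTCA, the letters of AP-1, occurred in none of the 275, beside 0.238% of all promoter and 0.906% of all distal footprints. Regions with HNF4, HNF1 and CTCF letters are printed with those letters in capitals, all on GRCm38.p6. The first, in an intron of Foxo3 at chr10:42225621-42225900 on the minus strand, had 1.99 in replicate 1 and 1.69 in replicate 2. The second, in an intron of Foxp1 at chr6:99275701-99275920 on the minus strand, had 1.06 and 1.03.
Foxo3 intron, HNF4: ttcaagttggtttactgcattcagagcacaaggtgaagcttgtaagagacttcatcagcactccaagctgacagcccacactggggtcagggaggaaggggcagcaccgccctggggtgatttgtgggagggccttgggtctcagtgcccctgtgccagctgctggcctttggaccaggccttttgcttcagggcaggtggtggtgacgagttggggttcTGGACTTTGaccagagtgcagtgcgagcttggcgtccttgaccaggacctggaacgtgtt
Foxp1 intron, HNF1: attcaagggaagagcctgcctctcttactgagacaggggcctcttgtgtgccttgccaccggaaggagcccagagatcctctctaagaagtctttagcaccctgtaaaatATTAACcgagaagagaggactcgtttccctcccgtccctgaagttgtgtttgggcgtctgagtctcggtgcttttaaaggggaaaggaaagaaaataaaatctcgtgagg
The third, centred at -5715 bases from the TSS of Foxo1 at chr3:52262541-52262700 on the plus strand, had 1.298 and 3.60, more than 2-fold higher in replicate 2.
Foxo1 upstream, CTCF: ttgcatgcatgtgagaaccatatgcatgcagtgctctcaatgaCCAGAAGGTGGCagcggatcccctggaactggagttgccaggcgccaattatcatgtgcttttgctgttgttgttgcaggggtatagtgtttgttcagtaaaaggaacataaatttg

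Over all Fox regions the libraries differed little. Replicate 2 was higher in 105 of 184 (57.1%), beside 49.4% of all shared regions. Across 184 different regions the log2 ratio (replicate 2 over replicate 1) had a median of 0.07 (SD 0.56), beside -0.01 (SD 0.63) over all shared regions. In 12 regions (6.52%) replicate 2 was more than 2-fold higher, beside 7.64% of all regions, and in 5 (2.72%) more than 2-fold lower, beside 4.31%.

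The distal regions of closed members leaned towards replicate 2. Of these 27 regions, 19 were higher in replicate 2, beside 45.7% of all distal regions, and 7 (25.9%) were more than 2-fold higher, beside 8.98% of all distal regions. None was more than 2-fold lower, beside 5.21%. Their median log2 ratio was 0.43, with median signals of 0.769 and 1.22. The 7 lay at Foxa1, Foxa2, Foxd3, Foxi2, Foxn1 (2 regions) and Foxn4, with log2 ratios from 1.06 at Foxn1 to 1.60 at Foxa1. Around the open members, 117 distal regions had a median of -0.02, with 5 more than 2-fold higher and 5 more than 2-fold lower. Whether the groups of regions differ was not tested, since regions of 1 gene share their source. The split by open and closed members was not planned in advance.

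Among open members, chosen here after their values were seen, the median log2 ratio was 1.13 over 2 regions of Foxf1 and 0.90 over 3 of Foxc1, where every region was higher in replicate 2. At Foxf1 the ratio was 0.51 at the promoter and 1.76 at the distal region, chr8:121092761-121092980. That distal region had 1.13 and 3.83 and lies in a UTR exon of Mthfsd. The median was 0.47 over 3 regions of Foxd2, of which 2 were higher in replicate 2. It was 0.61 over the 7 regions of Foxp4, all higher in replicate 2, and -0.24 over the 21 regions of Foxo3. All 3 open stroma and mural markers were higher in replicate 2, beside 64.0% of all promoter regions: Pdgfra had 1.69 and 3.13, Myh11 had 1.12 and 1.59, and Pdgfrb had 0.653 and 0.725, while Acta2 was closed. The 3 open multiciliated markers were higher in replicate 2 as well. Among endothelial markers, Kdr, Ehd3, Pecam1 and, by little, Tek (0.529 and 0.534) were higher in replicate 2, and Cdh5 was lower (1.22 and 1.13). Tubule markers went both ways. Of the proximal tubule and thick ascending limb markers, Lrp2, Miox and Egf were higher in replicate 2. Cubn, Slc34a1, Slc5a2, Slc22a6, Umod, Slc12a1 and Kcnj1 were lower. Of the open distal convoluted tubule, principal and intercalated cell markers, Emx1, Aqp3, Scnn1g and Slc26a4 were higher in replicate 2. Slc12a3, Wnk4 and Atp6v1b1 were lower. The part of these cell types in the difference between libraries was not tested. Of the 27 regions around closed members, 14 also lie within 10 kb of another coding gene.

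**Figure D4:**
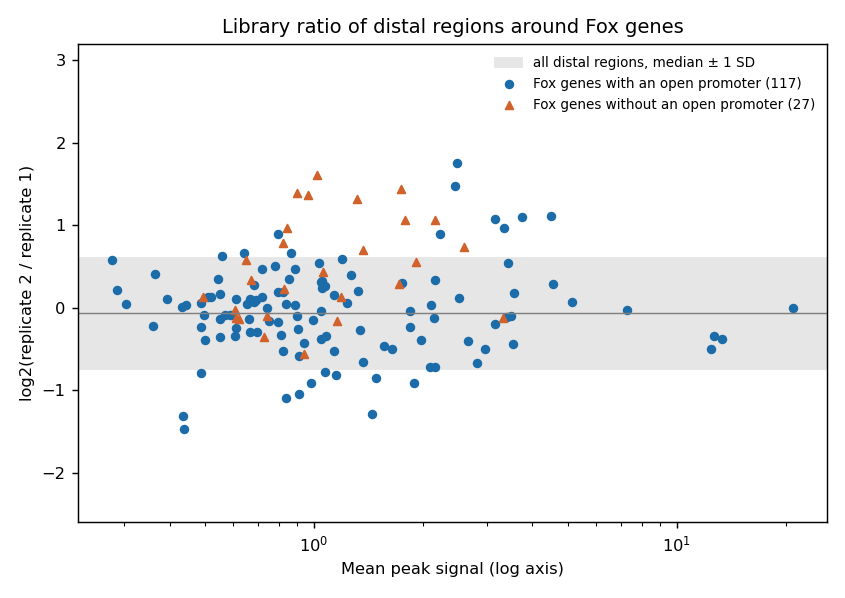
log2 ratio of replicate 2 to replicate 1 (y axis) against mean signal (x axis, log) for the distal regions of the Fox genes, with the median ± 1 SD of all distal regions as a grey band. Triangles (27, genes without an open promoter) lie mostly above 0 and none reaches 2-fold lower, and circles (117, genes with an open promoter) scatter around 0.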

How the data were processed

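DNase-seq was measured in 2 kidney libraries of 1 group, so no comparison between conditions was made. The authors deposited, for each library separately and on mm10, peak lists with a signal per peak, footprints, and a list of runs of bases with an FDR, per the file headers in the text file with each library. The footprints carry a constant p-value or q-value level of 0.01, and the deposited FDR (a q-value) is listed only up to 0.05. Not given in the sources used here: the aligner and the peak and footprint callers. Reads of the CAST/EiJ chromosomes may map less well to the reference, which was not tested. All deposited signal values were whole multiples of 1 step per library (tolerance 0.05 steps), and the tag totals in the text are inferred from it.

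The longer peak list was used. Peaks were joined across libraries, assigned to GENCODE M21 genes, and scanned on GRCm38.p6 with Python 3.11.15, pysam 0.24.0, numpy 2.4.6 and scipy 1.17.1. Shared footprints overlapped by at least 1 base, and letters were searched on both strands with 5 bases added on each side. Promoter sequences printed for Foxd2, Foxd3 and Foxo1 are from RefSeq, in which 26 of the 41 genes matched by symbol. Intervals are exact binomial (95%) and take in counting error alone. The joining step was tested on simulated peaks.

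The genes, gene lists, markers and letters were chosen with earlier results of these data known, and the RFX letters and CpG split were added later. The splits by coding blocks and, for the library ratio, by open and closed members were not planned in advance. Every open member, and every closed member with a distal region, was to be named with its values, and 1 member and 1 marker list are not reported here. Coordinates and footprints are given for the 10 strongest open promoters, the 10 strongest distal regions and the FoxO, FoxA, FoxK and FoxP genes, Foxj1 and Foxm1. The alternatives tried were the shorter peak list, the stronger 50% of peaks, other windows and flanks, the outermost start, stricter overlap, each library alone and other footprint margins.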

Additional observations from a re-analysis of the deposited data

How the results depend on the processing

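The number of Fox genes with an open promoter lay between 17 (100-base window) and 27 (2000-base window) and stayed within 1.5 times the main 21 under every alternative run, and with each library alone it was 21 or 22. The number of CpG-rich Fox genes with an open promoter lay between 15 and 21. Distal counts depended on the search space and the peak threshold. Counting in the gene body alone, 18 genes had a distal region and there were 96 regions in all, with a flank of 50 kb there were 303, the shorter peak list gave 92, and 78 came from the stronger 50% of peaks. Forkhead letters were found in 0 footprints when no bases were added. No paired analysis was possible because there is 1 group. With 2 libraries, an SD is a rough measure of error, and weak peaks are limited by depth.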
